A study of Mus musculus with 10 samples.

Results

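Oxidative phosphorylation is carried out in the inner mitochondrial membrane by 5 multisubunit complexes. Complexes I to IV form the respiratory chain, which takes electrons from NADH and succinate, passes them to oxygen and pumps protons out of the matrix, except at complex II, which pumps none. Complex V, the ATP synthase, lets the protons back in and makes ATP. Most subunits of these complexes are encoded in the nucleus, made in the cytosol and imported, and the remaining ones are encoded by the mitochondrial genome. In the exocrine pancreas, acinar cells spend much of this ATP on the synthesis, packaging and release of digestive enzymes.

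The genes described are the nuclear subunit genes of complexes I to V in the pancreas of newborn mice. They were taken by symbol (Nduf genes of the a, b, c, s and v series, Sdha to Sdhd, the Uqcr genes, Cyc1, the Cox4 to Cox8 genes and the Atp5 genes), leaving out assembly factors named Ndufaf and pseudogenes marked -ps. This rule found 85 of the 24062 genes in the deposited tables. Complex I has 37 of them, complex II 4, complex III 9, complex IV 18 and complex V 17. Symbols placed 5 genes in ways that structure would not: Ndufa4 is now known as a subunit of complex IV, and Ndufa4l2, Cox7a2l, Atp5s and Atp5sl are named like subunits but are not counted as structural ones. A search by symbol found 0 genes of the mitochondrial genome in the deposited tables, so none was analysed here.

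RNA-seq was performed on whole pancreas of C57BL/6 mice at postnatal day 5 (P5), 1 library per mouse, from 5 wild type (WT) and 5 KSR23 mice. KSR23 mice carry R23, a knock-in of both IL-23 subunits p19 and p40 at the ROSA26 locus, switched on by a cre recombinase under the K14 promoter that is active in keratinocytes. The paper describes the controls of the pancreas comparison as littermates. The comparison describes how the RNA of the energy-producing machinery in the pancreas differs between these newborn mice and WT. The paper reports that KSR23 mice at P5 were also smaller, with more triglycerides in stool, less in serum and several serum cytokines raised. The part of these differences was not tested. Il23a, the gene of p19, had 1 to 9 counts in the WT libraries and 21 to 48 in the KSR23 libraries, and Il12b, the gene of p40, had 0 to 7 and 3 to 13.

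The libraries held 16715976 to 57784136 counts in genes, the lowest being KSR23 replicate 3. The tested subunit genes had a median of 2130 counts per library (range 11 to 39112), so counting error was small beside the spread between mice for most of them. Levels are given as CPM, read counts relative to the library's total after scaling by TMM (edgeR's trimmed mean of M values), and differences as the log2 fold change of KSR23 over WT with its standard error (SE). A gene was tested if it had at least 5 counts in every library, which 13882 genes did, and was called if the adjusted p of edgeR's quasi-likelihood test (Benjamini-Hochberg over all 13882 genes) was under 0.05. Of the 85 subunit genes 79 were tested, 36 in complex I, 4 in II, 9 in III, 13 in IV and 17 in V. Of the other 6, Ndufs5 is listed at 0 in all 10 libraries, and Cox6a2, Cox7a1, Cox7b2, Cox8b and Cox8c had too few counts.

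Some libraries stood apart before any comparison. WT replicates 1 and 4 had the highest level of their group for 31 and 32 of the 79 tested genes, and WT replicate 2 had the lowest for 49. This ran with transcript length. For the 48 tested genes whose main transcript is under 1000 bases, the median coefficient of variation was 14.4% among WT mice and 5.55% among KSR23 mice, and for the 31 longer ones it was 6.60% and 5.54%. Each library was made from 100 pg of total RNA with 15 cycles of cDNA and 12 cycles of library amplification and no molecular identifiers. Floors based on counts therefore cover counting error only, while each SE, from edgeR's fit, also holds the spread between mice. Non-unique alignments made up 49.6% to 53.7% of alignments in WT and 38.5% to 42.5% in KSR23 libraries.

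**Figure D1:**
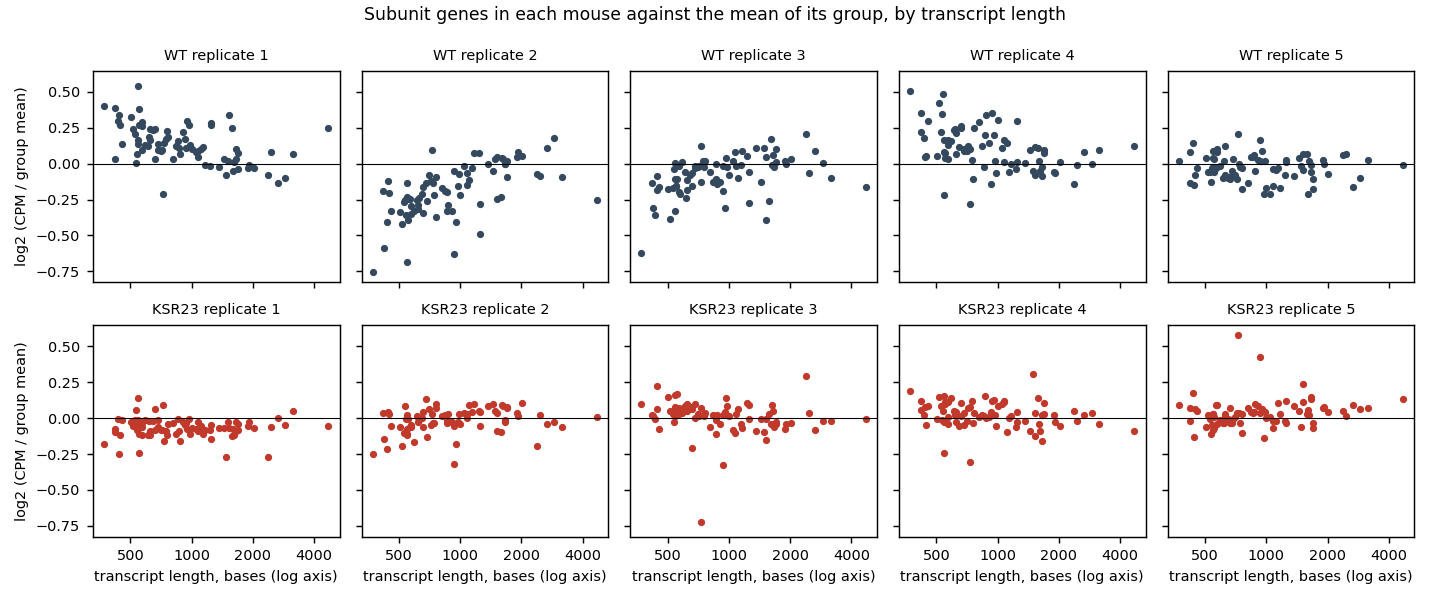
Each panel is 1 mouse and each point 1 of the 79 tested subunit genes; the x axis is the length of its main transcript in bases (log axis) and the y axis the log2 of its CPM over the mean of its group. In WT replicates 1 and 4 the short transcripts lie mostly above 0 and in WT replicate 2 below it, with median log2 values of 0.17, 0.14 and -0.26 under 1000 bases, while the KSR23 mice stay closer to 0, with medians from -0.06 to 0.04.

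Most of the subunit genes were lower in KSR23 pancreas, each by a small amount. Of the 79 tested, 48 were called lower, 0 were called higher and 31 were not called. Over all 13882 tested genes 31.0% were called, 16.2% higher and 14.8% lower. For the subunit genes the shares were 0% higher and 60.8% lower. The log2 fold change was below 0 for 76 of the 79, with a median of -0.26 (range -0.59 to 0.09) against -0.01 over all genes, and the 48 called genes lay at 0.664 to 0.866 of their WT level. In 31 of the 79 (39.2%) the 5 KSR23 mice and the 5 WT mice did not overlap, against 19.4% over all genes.

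The choice of mice and of scaling moved this count. With WT replicates 1 and 4 both left out, which was chosen after the data were seen, 26 genes were called lower, all of them among the 48, and the median was -0.17. With library size alone in place of TMM, 26 were also called lower at a median of -0.17, while the median of all genes moved up to 0.09, and the gap between the medians stayed at -0.25. No subunit gene was called higher under any of the 21 alternatives. Across all 21, 20 genes kept the call of lower: 10 of complex I, 1 of complex II, 3 of complex III, 1 of complex IV and 5 of complex V.

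Summed over all 85 genes, the level was 7845, 6689, 6983, 7671 and 7137 CPM in WT replicates 1 to 5 and 5845, 6094, 6123, 6139 and 6264 CPM in KSR23 replicates 1 to 5. The sums did not overlap, and the mean of KSR23 was 0.839 of the mean of WT. By complex the ratio of means was 0.816 for I, 0.886 for II, 0.849 for III, 0.840 for IV and 0.849 for V. The sums of complexes I, II, III and V did not overlap between the groups, and those of complex IV did. Set against total counts without TMM, the sum of all 85 still did not overlap, at a ratio of 0.895, but the sum of complex II did, at 0.945, as did that of complex IV, at 0.898. Since these are whole-tissue libraries, fewer cells of a type and less RNA per cell cannot be told apart.

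**Figure D2:**
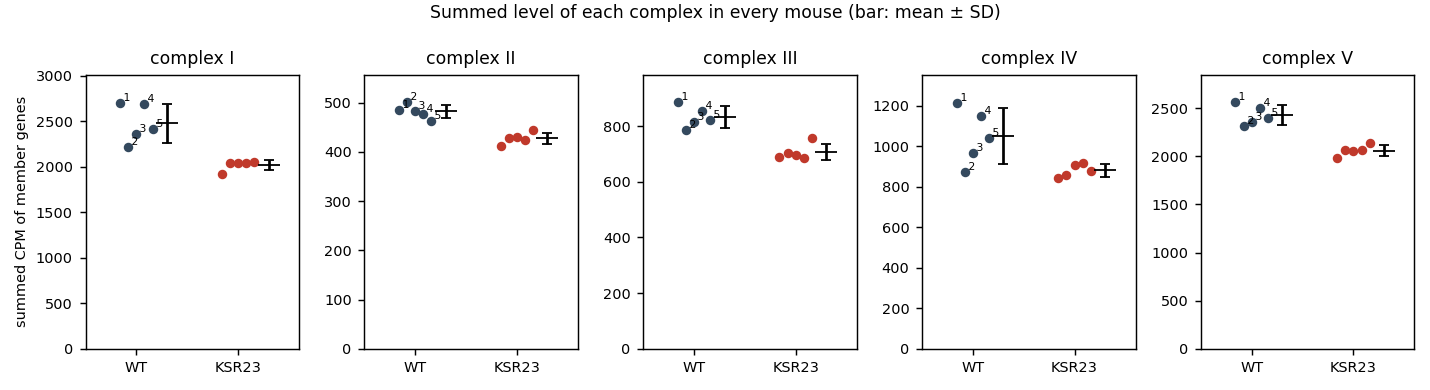
Summed CPM (y axis, from 0) of the subunit genes of each complex in every mouse, WT in dark blue with the replicate number beside each point, KSR23 in red; the black bar is the mean ± SD (n = 5 each). In complexes I, II, III and V all KSR23 mice lie below all WT mice, while in complex IV the lowest WT mouse, replicate 2 at 871 CPM, lies below 3 of the 5 KSR23 mice.

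**Figure D3:**
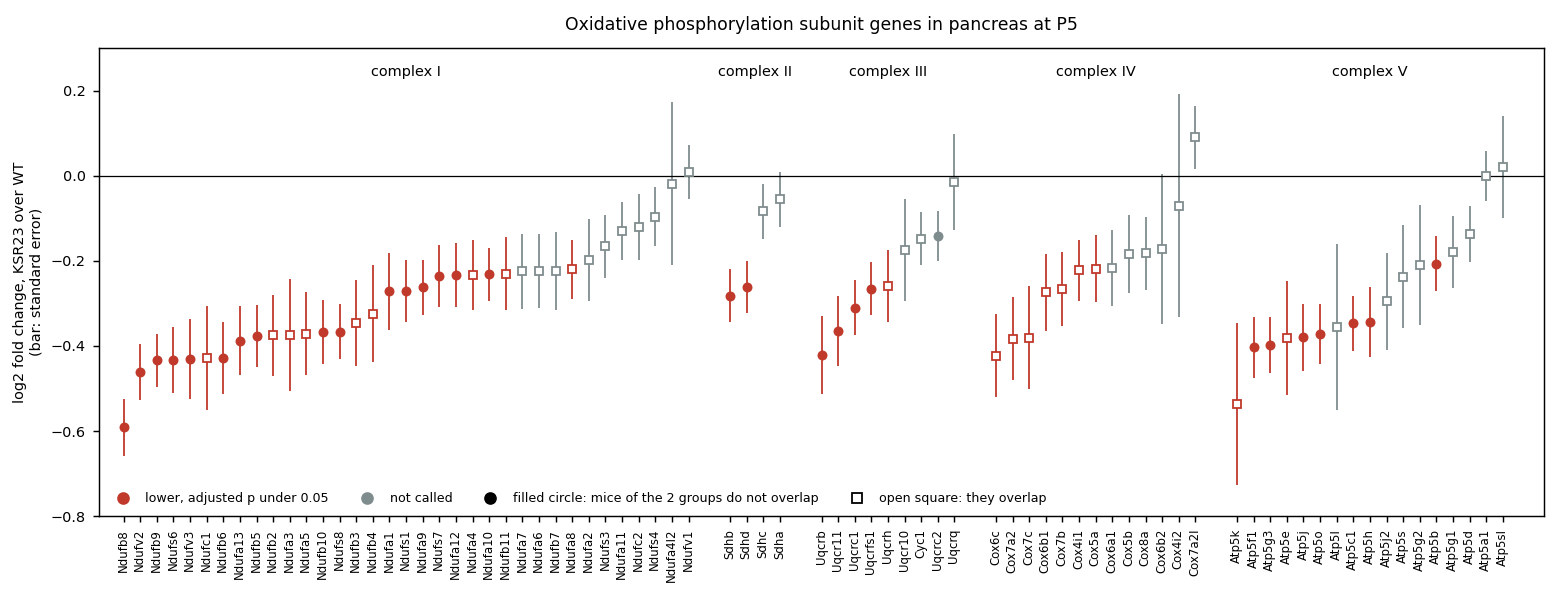
Log2 fold change of KSR23 over WT (y axis, bar: SE) for 78 of the 79 tested genes, ordered within its complex; red marks the 48 called lower, grey those not called, filled circles genes whose mice do not overlap and open squares those whose mice do. Points run from -0.59 (Ndufb8) to 0.09 (Cox7a2l), and no red point lies above 0.

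Promoters of these genes often carry short motifs of 3 factors long tied to respiratory genes, NRF1, the ETS factor GABP and YY1. The cores searched were TGCGCA for NRF1 (its own reverse complement), CGGAAG for ETS factors (reverse CTTCCG) and AAGATGG for YY1 (reverse CCATCTT), on both strands, in the 250 bases before and 50 after each RefSeq start (GRCm38.p6). An ETS and a YY1 core can overlap in the letters AAG. Promoters were matched for 69 of the 85 genes. Among the 71 promoters of tested subunit genes, 25.4% held the NRF1 core, 39.4% the ETS core and 18.3% the YY1 core, against 12.9%, 28.5% and 6.61% of the 14060 promoters of all tested genes and 7.76%, 16.9% and 6.34% of all 32851 promoters in the table. Set side by side without a test, the shares for genes called lower and for those not called were 26.1% of 46 promoters against 24% of 25 for NRF1, 41.3% against 36% for ETS and 19.6% against 16% for YY1. These matches are descriptions of letters, and binding was not measured. To show what such starts look like, 1 gene per complex is printed, the one called lower with the lowest adjusted p that has a core from 120 bases before to 30 after its start. Each is written 5′ to 3′ on the gene's strand with the core in capitals, at chr19:44555413-44555562 (minus strand) for Ndufb8, chr4:140961151-140961300 (plus) for Sdhb, chr10:80406792-80406941 (minus) for Uqcr11, chr13:86046766-86046915 (minus) for Cox7c and chr3:105959234-105959383 (minus) for Atp5f1.
Ndufb8: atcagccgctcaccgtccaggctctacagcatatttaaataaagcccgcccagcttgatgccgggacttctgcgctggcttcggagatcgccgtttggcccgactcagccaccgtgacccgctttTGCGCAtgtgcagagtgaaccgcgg
Sdhb: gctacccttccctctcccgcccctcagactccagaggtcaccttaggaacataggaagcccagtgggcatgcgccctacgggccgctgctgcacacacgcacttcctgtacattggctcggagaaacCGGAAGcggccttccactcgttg
Uqcr11: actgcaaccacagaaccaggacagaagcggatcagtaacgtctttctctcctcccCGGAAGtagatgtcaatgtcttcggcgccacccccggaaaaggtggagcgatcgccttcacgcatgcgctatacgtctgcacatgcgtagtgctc
Cox7c: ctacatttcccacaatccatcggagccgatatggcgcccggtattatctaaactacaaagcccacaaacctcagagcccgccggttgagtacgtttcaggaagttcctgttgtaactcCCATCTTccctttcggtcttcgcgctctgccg
Atp5f1: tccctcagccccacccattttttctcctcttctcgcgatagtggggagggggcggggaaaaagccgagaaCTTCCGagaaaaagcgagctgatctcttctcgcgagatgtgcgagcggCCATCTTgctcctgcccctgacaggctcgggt
The Ndufb8 stretch has the NRF1 core, the Sdhb and Uqcr11 stretches the ETS core, the Cox7c stretch the YY1 core, and the Atp5f1 stretch an ETS and a YY1 core.

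Complex I, NADH dehydrogenase, takes electrons from NADH and hands them to ubiquinone. Its nuclear core subunits carry the flavin and the iron-sulphur clusters, and its many accessory subunits surround the core. In KSR23 pancreas 25 of its 36 tested genes were lower (69.4%) and 0 higher, at a median log2 fold change of -0.27. Between groups 17 of the 36 (47.2%) did not overlap. The shares over all tested genes were 14.8% lower, 16.2% higher and 19.4% without overlap. Of the 7 core genes 4 were lower (Ndufv2, Ndufs1, Ndufs7 and Ndufs8), and of the 29 tested accessory genes 21 were lower. With WT replicates 1 and 4 left out, and likewise with library size alone, 13 of the 36 were called lower.

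Ndufb8, an accessory subunit of the membrane arm, had the largest fall of all 79 genes. It stood at 149, 127, 138, 150.1 and 135 CPM in WT replicates 1 to 5 and at 89.1, 102, 93.0, 89.9 and 90.7 CPM in KSR23 replicates 1 to 5. All KSR23 mice lay below all WT mice, and the means were 139.8 ± 9.75 and 92.8 ± 5.10 CPM (SD, n = 5 each; log2 fold change -0.59 ± 0.07 (SE), edgeR adjusted p = 1.99e-06). The gene lies on chr19:44548572-44555440 (GRCm38, minus strand), and 4.26% of its exon bases are shared with the overlapping gene Gm20538.

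Ndufb9, another accessory subunit of the membrane arm, was the complex I gene with the highest mean CPM. Its level was 188, 168, 174, 188 and 167 CPM in the WT mice and 124, 137, 134, 129 and 132 CPM in the KSR23 mice, in replicate order. The groups did not overlap (log2 fold change -0.43 ± 0.06 (SE), edgeR adjusted p = 3.1e-05). Of its exon bases 19.5% are shared with the overlapping gene Gm49356, so its reads are in part uncertain.

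Ndufv2 and Ndufv1 encode core subunits that sit together at the tip of the complex where NADH is oxidized, Ndufv1 with the flavin and Ndufv2 with an iron-sulphur cluster. Ndufv2 stood at 83.2, 86.1, 91.6, 89.8 and 75.3 CPM in WT and at 60.2, 65.0, 60.8, 63.0 and 60.4 CPM in KSR23 mice, with no overlap (log2 fold change -0.46 ± 0.07 (SE), edgeR adjusted p = 3.6e-05). Ndufv1 stood at 98.6, 91.5, 90.4, 90.4 and 88.3 CPM in WT and at 86.8, 91.3, 88.5, 93.7 and 101 CPM in KSR23 mice, which overlapped throughout (log2 fold change 0.01 ± 0.06 (SE), edgeR adjusted p = 0.938). This pair was picked after its values were seen, so its ratio is a description with no test. The ratio of Ndufv2 to Ndufv1 counts within a library, which does not depend on scaling, was 0.844, 0.940, 1.01, 0.993 and 0.852 in WT and 0.694, 0.712, 0.686, 0.673 and 0.595 in KSR23 mice, with no overlap (means 0.928 ± 0.0780 and 0.672 ± 0.0453, SD, n = 5 each). The ratio is not corrected for GC content, which is 41.96% for the Ndufv2 transcript and 56.65% for that of Ndufv1. With the length and GC offset the log2 fold change of Ndufv1 went to -0.11. That of Ndufv2 ran from -0.51 to -0.31 over the 21 alternatives.

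Other core genes were lower too. Ndufs8, which holds iron-sulphur clusters on the way to the quinone site, fell by 0.37 on the log2 scale (edgeR adjusted p = 0.000324), Ndufs1, the largest core subunit, by 0.27 (edgeR adjusted p = 0.00912) and Ndufs7, which carries the last cluster before ubiquinone, by 0.23 (edgeR adjusted p = 0.0209). Ndufs7 lost the call without WT replicate 1, which was its highest mouse, without WT replicates 1 and 4 together, with library size alone and under the replicate block, and Ndufs1 lost it with library size alone. Ndufs3 was not called, at -0.17 (edgeR adjusted p = 0.0956).

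Among the accessory genes, Ndufs6 (-0.43), Ndufb5 (-0.38), Ndufb6 (-0.43), Ndufb10 (-0.37), Ndufa13 (-0.39) and Ndufv3 (-0.43; all log2 fold changes) were lower with edgeR adjusted p from 0.000402 to 0.00203, did not overlap between groups and kept the call under all 21 alternatives. Ndufa9 (-0.26) and Ndufa10 (-0.23) did not overlap either and lost the call with library size alone. Ndufb2, Ndufa5, Ndufc1, Ndufb3, Ndufa8, Ndufa12, Ndufa1, Ndufb4, Ndufa4, Ndufa3 and Ndufb11 were called lower at -0.43 to -0.22 with edgeR adjusted p from 0.00624 to 0.0495, and each lost the call with WT replicates 1 and 4 left out. The accessory genes not called were Ndufa6, Ndufa7, Ndufb7, Ndufa2, Ndufa11, Ndufc2, Ndufs4 and Ndufa4l2, with log2 fold changes from -0.22 to -0.02.

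Ndufa4 and Ndufa4l2 are a pair in which Ndufa4l2 is known as the form that low oxygen raises. Ndufa4 was measured at 128, 98.5, 113, 138 and 109.9 CPM in WT and 92.1, 101, 106, 104 and 97.7 CPM in KSR23 mice (log2 fold change -0.23 ± 0.08 (SE), edgeR adjusted p = 0.0388). The groups overlapped, and its call was lost under 11 of the 21 alternatives, among them leaving out WT replicate 1 or 4 or KSR23 replicate 1, 2, 4 or 5. Ndufa4l2 was at 4.42, 2.64, 3.58, 5.23 and 4.58 CPM in WT and 3.90, 3.20, 3.19, 4.33 and 5.36 CPM in KSR23 mice (log2 fold change -0.02 ± 0.19 (SE), edgeR adjusted p = 0.953), and its sign depended on the scaling and on single mice. Per kilobase of transcript, the WT means were 193 CPM for Ndufa4 and 4.38 CPM for Ndufa4l2.

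Complex II, succinate dehydrogenase, is shared by the respiratory chain and the citric acid cycle and is the only complex with no subunit from the mitochondrial genome. Its 4 genes split into 2 that were lower (50%, against 14.8% over all tested genes) and 2 that were not called. Their median log2 fold change was -0.17. Sdhb, the iron-sulphur subunit, stood at 145, 130.3, 132, 128 and 131 CPM in WT and at 101, 113, 106, 109.7 and 118 CPM in KSR23 mice, with no overlap (log2 fold change -0.28 ± 0.06 (SE), edgeR adjusted p = 0.0024). Sdhd, a membrane anchor that binds ubiquinone, stood at 129.9, 138, 136, 128 and 124 CPM in WT and at 104, 113, 118, 105 and 108 CPM in KSR23 mice, again with no overlap (log2 fold change -0.26 ± 0.06 (SE), edgeR adjusted p = 0.00371). Sdhb kept the call under all 21 alternatives and Sdhd lost it with library size alone, where 1 gene of the complex was called.

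Sdha, the flavoprotein that oxidizes succinate and the complex II gene with the highest mean CPM, stood at 142, 172, 153, 152 and 142 CPM in WT and at 142, 144, 144, 150.0 and 153 CPM in KSR23 mice. The groups overlapped (log2 fold change -0.06 ± 0.06 (SE), edgeR adjusted p = 0.549). Sdhc, the partner of Sdhd in the membrane, stood at 68.5, 61.3, 60.9, 69.8 and 66.4 CPM in WT and at 64.0, 59.1, 60.9, 59.9 and 64.8 CPM in KSR23 mice, which overlapped too (log2 fold change -0.08 ± 0.06 (SE), edgeR adjusted p = 0.354). With library size alone both turned to values just above 0 (0.04 and 0.01). The within-library ratios of Sdhb to Sdha and of Sdhd to Sdhc counts, set up after the values were seen and not tested, had means of 0.880 ± 0.0965 and 2.02 ± 0.210 in WT and of 0.748 ± 0.0298 and 1.78 ± 0.144 in KSR23 mice (SD, n = 5 each), and both overlapped between the groups.

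Complex III passes electrons from ubiquinol to cytochrome c. Of its 9 genes 5 were lower (55.6%, against 14.8% over all tested genes) and 0 higher, at a median log2 fold change of -0.26. The groups did not overlap for 5 (55.6%, against 19.4%). Uqcrc1, a core protein of the matrix side and the gene of the complex with the highest mean CPM, stood at 204, 199, 208, 188 and 198 CPM in WT and at 158, 158, 166, 144 and 178 CPM in KSR23 mice, with no overlap (log2 fold change -0.31 ± 0.07 (SE), edgeR adjusted p = 0.00155). Uqcrb, a small subunit near the ubiquinone site, stood at 77.8, 64.9, 75.4, 98.3 and 70.7 CPM in WT and at 60.1, 61.2, 56.8, 57.4 and 53.6 CPM in KSR23 mice, with the highest value in WT replicate 4 (log2 fold change -0.42 ± 0.09 (SE), edgeR adjusted p = 0.00189). Its groups did not overlap, and its call was lost once the trend with transcript length and GC content was taken out. Uqcr11, the smallest subunit, stood at 80.9, 58.1, 63.1, 69.7 and 63.6 CPM in WT and at 48.0, 53.1, 54.4, 50.5 and 54.5 CPM in KSR23 mice, with no overlap (log2 fold change -0.37 ± 0.08 (SE), edgeR adjusted p = 0.00259).

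The redox-active subunits of complex III differed in call. Uqcrfs1, the Rieske iron-sulphur protein, stood at 102, 104, 112, 104 and 98.3 CPM in WT and at 82.8, 91.7, 81.5, 85.3 and 92.0 CPM in KSR23 mice. All KSR23 mice lay below all WT mice (log2 fold change -0.27 ± 0.06 (SE), edgeR adjusted p = 0.00404). Cyc1, cytochrome c1, stood at 113, 115, 115, 106 and 108 CPM in WT and at 98.9, 103, 100.2, 92.2 and 109 CPM in KSR23 mice, where only KSR23 replicate 5 reached into the WT range (log2 fold change -0.15 ± 0.06 (SE), edgeR adjusted p = 0.0811). Uqcrh, the hinge protein, was lower (-0.26, edgeR adjusted p = 0.0259) but not without WT replicate 1 or 4 or without KSR23 replicate 2 or 5, and Uqcrc2, Uqcr10 and Uqcrq were not called at -0.14, -0.17 and -0.02. Uqcrc2, the other core protein, did not overlap between the groups, as was the case for 19.4% of all tested genes.

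Complex IV, cytochrome c oxidase, hands the electrons to oxygen, and its nuclear subunits surround a catalytic core encoded in the mitochondria. Of its 13 tested genes 7 were lower (53.8%, against 14.8% over all tested genes) and 0 higher, at a median log2 fold change of -0.22. The groups overlapped for all 13, while 19.4% of all tested genes did not overlap. The count of genes called lower rested on single mice. Without WT replicate 1, and likewise without WT replicate 4, it was 2, without both it was 1, without KSR23 replicate 1 or KSR23 replicate 2 it was 4, and with library size alone it was 2.

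Cox6c, a small subunit, stood at 103, 65.2, 72.8, 85.3 and 84.5 CPM in WT and at 60.2, 58.8, 67.8, 61.1 and 58.8 CPM in KSR23 mice. Only WT replicate 2 fell within the KSR23 range (log2 fold change -0.42 ± 0.10 (SE), edgeR adjusted p = 0.00292), and the call held under all 21 alternatives. Cox4i1, the form of subunit 4 used in most tissues and the gene of the complex with the highest mean CPM, stood at 261, 199.6, 235, 236 and 228 CPM in WT and at 187, 194, 202, 216 and 194 CPM in KSR23 mice (log2 fold change -0.22 ± 0.07 (SE), edgeR adjusted p = 0.0241). Its call was lost without WT replicate 1, 3 or 4 and without KSR23 replicate 1 or 2. Cox7c, where 49.6% of the transcript's 75-base windows are unique in the annotation, stood at 47.1, 35.1, 35.7, 62.7 and 43.9 CPM in WT and at 32.6, 34.4, 36.5, 35.7 and 33.4 CPM in KSR23 mice (log2 fold change -0.38 ± 0.12 (SE), edgeR adjusted p = 0.0241), and its call was lost without WT replicate 1 or without WT replicate 4.

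Cox6b1 (-0.27), Cox7b (-0.27) and Cox5a (-0.22) were also called lower with edgeR adjusted p of 0.0272, 0.0274 and 0.0415, and all 3 lost the call without WT replicate 1 or without WT replicate 4, and Cox7b and Cox5a also without KSR23 replicate 1 or 2. Cox5b, Cox6b2 and Cox7a2l were not called, at -0.18, -0.17 and 0.09. Cox7a2l, which helps join complexes into supercomplexes, was the highest of the 79 log2 fold changes.

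Several complex IV subunits come as a form used in most tissues and a form of heart and skeletal muscle or lung. Cox7a2 stood at 113, 75.1, 85.7, 113 and 89.5 CPM in WT and at 69.1, 70.1, 76.2, 78.5 and 71.6 CPM in KSR23 mice, where only WT replicate 2 fell within the KSR23 range (log2 fold change -0.38 ± 0.10 (SE), edgeR adjusted p = 0.00642). Cox7a2 lost the call with WT replicates 1 and 4 left out. Its muscle form Cox7a1 was at 0.736, 0.275, 0.105, 0.678 and 0.633 CPM in WT and 0.352, 0.415, 0.615, 0.324 and 0.125 CPM in KSR23 mice and was not tested. Cox6a1 stood at 182, 122, 129.8, 152 and 159.8 CPM in WT and at 125, 124, 131, 125 and 137 CPM in KSR23 mice and was not called (log2 fold change -0.22 ± 0.09 (SE), edgeR adjusted p = 0.0738). Its muscle form Cox6a2 was at 0.280, 0.172, 0.351, 1.13 and 0.335 CPM in WT and 0.0503, 0.148, 0.112, 0.0498 and 0.0179 CPM in KSR23 mice. The groups of Cox6a2 did not overlap in CPM and the highest value was in WT replicate 4, but its counts were too low for the test across genes. WT replicate 2 and KSR23 replicate 2 had the same 5 counts, and the other KSR23 mice had 1 or 2. Per kilobase of transcript, the WT means were 145 CPM for Cox7a2 and 1.24 CPM for Cox7a1, and 261 CPM for Cox6a1 and 0.667 CPM for Cox6a2.

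The pattern was alike for subunits 8 and 4. Cox8a stood at 107, 74.7, 79.5, 91.1 and 90.4 CPM in WT and at 72.3, 73.9, 81.7, 83.7 and 78.3 CPM in KSR23 mice and was not called (log2 fold change -0.18 ± 0.09 (SE), edgeR adjusted p = 0.114). Its muscle form Cox8b was at 0.140, 0.0687, 0.141, 0.258 and 0.0373 CPM in WT and 0, 0.0593, 0, 0 and 0 CPM in KSR23 mice. Cox4i2, the form of subunit 4 known from lung, was at 0.946, 1.17, 1.19, 0.903 and 1.27 CPM in WT and 1.08, 1.04, 0.615, 0.822 and 1.52 CPM in KSR23 mice (log2 fold change -0.07 ± 0.26 (SE), edgeR adjusted p = 0.867). A count of 3 corresponded to 0.0519 to 0.179 CPM of total counts in a library, so most values of Cox8b lie near or under what so few counts can show. The striated muscle markers fixed for this tissue summed to 42.4 CPM in WT replicate 4 and to no more than 3.41 CPM in the other 9 libraries, and their part in the muscle forms was not tested.

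Complex V, the ATP synthase, joins a catalytic head of alpha and beta subunits through a central gamma stalk and a peripheral stalk to a ring of subunit c in the membrane. Of its 17 genes 9 were lower (52.9%, against 14.8% over all tested genes) and 0 higher, at a median log2 fold change of -0.34. The groups did not overlap for 7 (41.2%, against 19.4%). Atp5b, the catalytic beta subunit, had the highest mean CPM of all 85 genes. It stood at 757, 807, 764, 728 and 760.2 CPM in WT and at 649, 667, 643, 648 and 699 CPM in KSR23 mice, with no overlap (log2 fold change -0.21 ± 0.07 (SE), edgeR adjusted p = 0.022), and lost the call under 5 alternatives, among them library size alone and leaving out WT replicate 2, KSR23 replicate 3 or KSR23 replicate 4. Atp5a1, the alpha subunit that alternates with it in the head, stood at 399.9, 356, 363, 376 and 397 CPM in WT and at 363, 384, 388, 373 and 383 CPM in KSR23 mice, which overlapped (log2 fold change -0.00 ± 0.06 (SE), edgeR adjusted p = 0.995). The within-library ratio of Atp5b to Atp5a1 counts, chosen after the values were seen and not tested, was 1.89, 2.27, 2.11, 1.94 and 1.91 in WT and 1.79, 1.74, 1.66, 1.74 and 1.82 in KSR23 mice, with no overlap.

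The lowest adjusted p of the complex belonged to 1 subunit c gene and to subunits of the stalks. Atp5g3, 1 of 3 genes for the same mature subunit c, stood at 183, 157, 169.5, 187 and 159 CPM in WT and at 123, 126, 131, 136 and 133 CPM in KSR23 mice, with no overlap (log2 fold change -0.40 ± 0.07 (SE), edgeR adjusted p = 0.000169). Atp5f1, subunit b of the peripheral stalk, stood at 106, 113, 124, 112 and 95.0 CPM in WT and at 78.8, 88.9, 80.8, 80.8 and 86.7 CPM in KSR23 mice, again with no overlap (log2 fold change -0.40 ± 0.07 (SE), edgeR adjusted p = 0.00036). Atp5c1, the rotating gamma subunit, stood at 192, 204, 206, 193 and 172 CPM in WT and at 144, 163, 145, 154 and 155 CPM in KSR23 mice, with no overlap (log2 fold change -0.35 ± 0.06 (SE), edgeR adjusted p = 0.000556). All 3 kept the call under all 21 alternatives.

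The other peripheral stalk genes moved alike: Atp5o, the subunit that confers oligomycin sensitivity, was lower at -0.37, Atp5j (factor 6) at -0.38 and Atp5h (subunit d) at -0.34 on the log2 scale, with edgeR adjusted p of 0.000663, 0.00139 and 0.00393 and no overlap. Only Atp5h of these 3 lost the call, with WT replicates 1 and 4 left out. Atp5e, the epsilon subunit, and Atp5k, subunit e, were called lower at -0.38 and -0.54 (edgeR adjusted p = 0.0368 and 0.0402), overlapped between groups and lost the call without WT replicate 1, 4 or 5 and without KSR23 replicate 1 or 2. The other genes for subunit c, Atp5g1 and Atp5g2, were not called at -0.18 and -0.21. No 75-base window of Atp5g2 and 24.0% of those of Atp5l are unique in the annotation, so their counts are uncertain. Atp5d, Atp5j2, Atp5l and Atp5s were not called at -0.14, -0.29, -0.36 and -0.24, and Atp5sl was at 0.02.

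**Figure D4:**
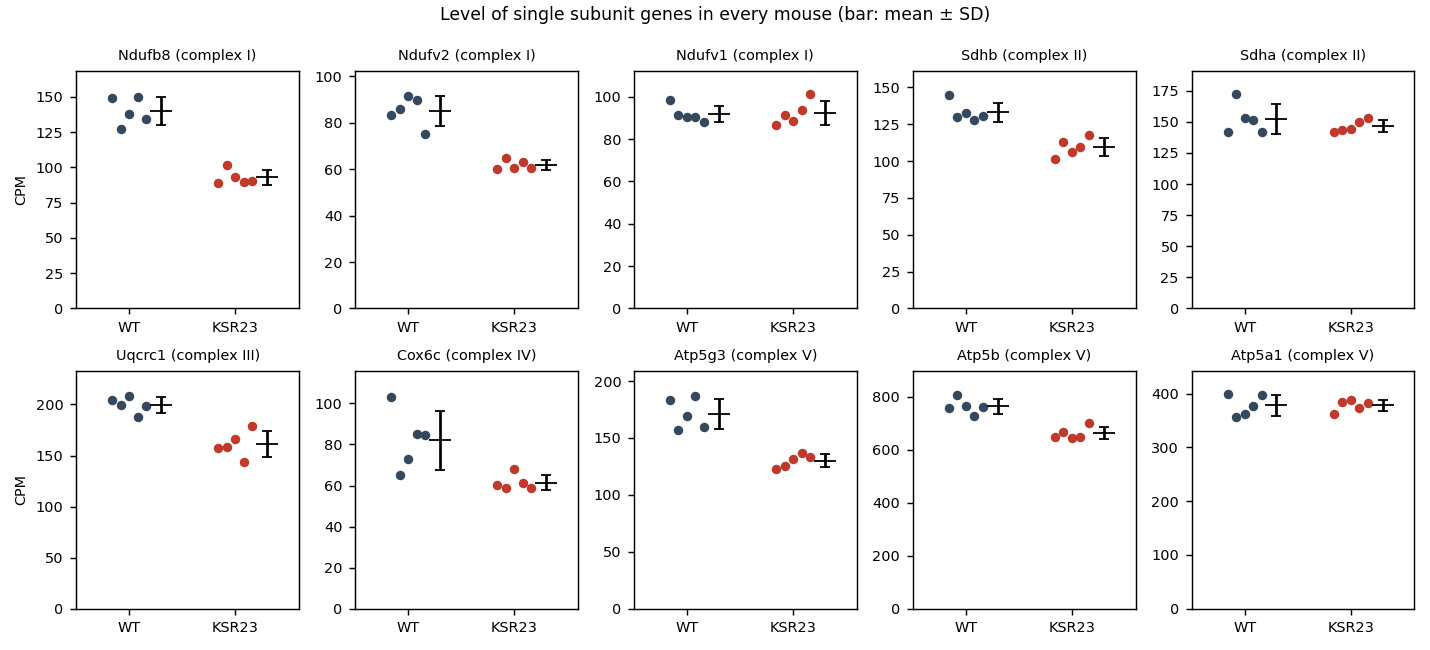
CPM (y axis, from 0) of 10 subunit genes in each mouse, WT in dark blue and KSR23 in red in replicate order, with the mean ± SD (n = 5 each) as a black bar. Ndufb8, Ndufv2, Sdhb, Uqcrc1, Atp5g3 and Atp5b do not overlap between groups, Cox6c overlaps through 1 WT mouse, and Ndufv1, Sdha and Atp5a1 overlap throughout.

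Per kilobase of main transcript, the level of the tested genes spread widely within each complex. In WT mice the median was 80.1 CPM per kb in complex I, 79.6 in II, 101 in III, 115 in IV and 107 in V. Atp5b was first at 398 CPM per kb in WT and 345 in KSR23 mice, Cox4i1 next at 311 and 267, and Cox6a1 after it at 261 and 225, the same order in both groups. Ndufb8 went from rank 7 to rank 11 of 79. The lowest was Cox4i2 at 1.51 and 1.40 CPM per kb. Reads that aligned to several places were not counted. Of the 79 genes 34 have windows shared with another gene. Some of these lie in exons that overlap another gene at the same place, such as Ndufb6 with Smim27 (39% of its exon bases). The annotation release used for the counting is not stated, so the effect on the counts is not known.

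Shared sequence and transcript length were examined as properties that the choice of genes did not use. Of the 45 tested genes whose 75-base windows are all unique in the annotation 25 were lower (55.6%), at a median log2 fold change of -0.23. Of the 34 with some shared windows 23 were lower (67.6%), at a median of -0.33. The share over all tested genes was 14.8%. Among the called genes named above, under 80% of the windows were unique for 12, namely Ndufa12, Ndufa13, Ndufb2, Ndufb4, Ndufb6, Ndufb9, Uqcrb, Cox5a, Cox7c, Atp5f1, Atp5h and Atp5o, so their counts are uncertain. Of the 48 genes with a transcript under 1000 bases 31 were lower and 14 did not overlap. Of the 31 longer ones 17 were lower and 17 did not overlap. The shares over all tested genes were 14.8% lower and 19.4% without overlap. Called genes stood in both length classes, and the longer class had the smaller spread among WT mice. With the length and GC offset 9 genes lost the call of lower and 10 gained it. The part of transcript length in the calls was not tested.

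The rest of the mitochondrial machinery was described by lists drawn up for this tissue with earlier results of these data known. Among 21 electron carriers and carriers of ADP, ATP and phosphate 11 were lower (52.4%) and 0 higher, at a median of -0.27. Over all tested genes 14.8% were lower and 16.2% higher. The 2 with the lowest adjusted p were Vdac1 (-0.57, edgeR adjusted p = 7.24e-06), the main channel of the outer membrane, and Adck3 (-0.66, edgeR adjusted p = 1.48e-05), a kinase-like protein of ubiquinone synthesis. Cycs, cytochrome c, which carries electrons from complex III to IV, stood at 25.6, 20.7, 23.1, 25.8 and 22.6 CPM in WT and at 17.9, 19.8, 18.6, 17.8 and 22.3 CPM in KSR23 mice, which overlapped (log2 fold change -0.29 ± 0.09 (SE), edgeR adjusted p = 0.0211). Of 42 assembly factors 12 were lower (28.6%) and 0 higher, at a median of -0.20. Those that were lower were led by Coa3 (-0.52), a complex IV factor, and Uqcc2 (-0.57), a complex III factor (edgeR adjusted p = 4.23e-05 and 0.00148). Of 3 subunits whose symbols fall outside the pattern 1 was lower, 2010107E04Rik (-0.41, edgeR adjusted p = 0.00497).

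Lists further from the respiratory chain had medians nearer 0. In the citric acid cycle and pyruvate dehydrogenase list 5 of 19 were lower (26.3%, against 14.8% over all genes) and 1 higher (5.26%, against 16.2%), at a median of -0.12. Suclg1 (-0.42) and Idh3a (-0.38) led those that were lower, both enzymes of the cycle, and Pcx, pyruvate carboxylase, which refills it, was higher at 1.17 (edgeR adjusted p = 0.00011, 0.000293 and 1.64e-06). Of 77 mitochondrial ribosomal protein genes 18 were lower (23.4%) and 3 higher (3.9%), at a median of -0.10. Mrpl42 (-0.40) and Mrps14 (-0.35) led those that were lower, and Mrpl38 (0.33) and Mrpl16 (0.29) those that were higher (edgeR adjusted p = 0.00026, 0.00146, 0.00459 and 0.0132). Of 22 import genes of the Tomm and Timm families 1 was lower, Tomm40l (-0.27), and 1 higher, Timm21 (0.29), at a median of -0.04. For the import genes this was 4.55% in each direction, below the shares over all genes. Among 19 regulators of mitochondrial biogenesis Pprc1 (0.52), a coactivator, and Peo1 (0.43), the mitochondrial DNA helicase, were higher, and Gabpa (-0.44) and Gabpb2 (-0.47), subunits of the ETS factor GABP, were lower, at edgeR adjusted p of 0.00312, 0.0207, 0.0162 and 0.0391. The median of the regulators was -0.01, and 10.5% of them were called in each direction, below the 16.2% higher and 14.8% lower over all genes.

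In glycolysis, the other route to ATP, 2 of 21 genes were higher (9.52%, against 16.2% over all genes) and 1 was lower (4.76%, against 14.8%), at a median of 0.04. Ldha, lactate dehydrogenase A, stood at 243, 268, 245, 242 and 224 CPM in WT and at 346, 351, 302, 322 and 348 CPM in KSR23 mice, with no overlap (log2 fold change 0.45 ± 0.07 (SE), edgeR adjusted p = 4.63e-05). Hk1, a hexokinase, was higher at 0.41 (edgeR adjusted p = 0.00759), and Slc2a2, the glucose transporter of islet beta cells and liver, was lower at -0.56 (edgeR adjusted p = 0.00079). The difference between the lists was not tested.

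**Figure D5:**
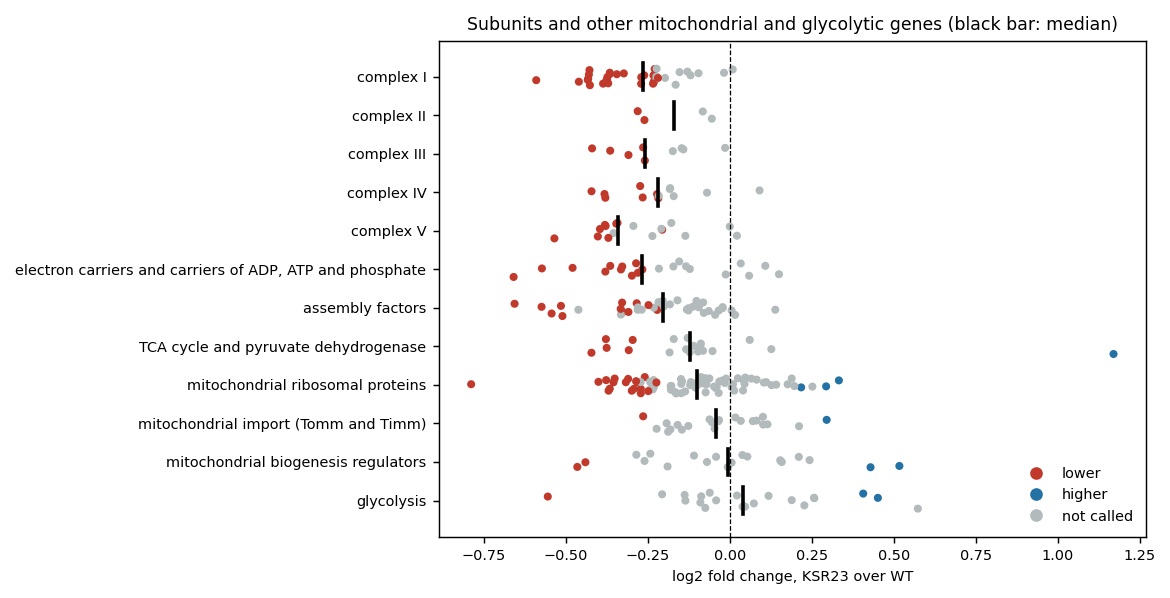
Log2 fold change of KSR23 over WT (x axis) for each tested gene of the 5 complexes and of 7 other lists (y axis; points are spread vertically for legibility), with lower genes in red, higher genes in blue, uncalled genes in grey and the median of each list as a black bar. The medians run from -0.34 for complex V to 0.04 for glycolysis, and Pcx stands alone at 1.17.

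Markers of some pancreatic and other cell types differed between the groups. Over all tested genes 14.8% were lower and 16.2% higher. All 10 acinar markers were lower (median log2 fold change -0.56), and their summed level was 212200 to 230700 CPM in WT and 114600 to 148100 CPM in KSR23 mice. Of 7 islet markers 6 were lower and 1 higher, with sums of 8113 to 11370 CPM in WT and 4995 to 6296 CPM in KSR23. Of 6 duct markers 5 were higher, with sums of 931 to 1044 CPM in WT and 1541 to 1702 CPM in KSR23, and of 6 tested myeloid markers 5 were higher, with sums of 78.5 to 98.9 CPM in WT and 121 to 314 CPM in KSR23, the highest in KSR23 replicate 3. Of 6 proliferation markers 4 were lower. Stromal markers (1 higher and 1 lower of 7, 14.3% each, near the shares over all genes), endothelial markers (1 higher and 2 lower of 5), lymphoid markers (1 lower of 4 tested), erythroid markers (0 of 3 tested, with 4 haemoglobin genes listed at 0 in all libraries), the 1 tested adipose marker (lower) and striated muscle markers (1 lower of 2 tested) made up the rest. The lower muscle marker, Acta1, stood at 26.6 CPM in WT replicate 4 and at 0.596 to 1.48 CPM in the other WT mice. The part of these shifts in the subunit genes was not tested.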

How the data were processed

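Whole-pancreas cDNA was amplified from oligo-dT primed RNA and sequenced as single 75-base reads. The kit does not mark strand. The authors aligned the reads to mm10 with TopHat2 2.1.0 and deposited raw counts per protein-coding gene from htseq-count (HTSeq 0.6.1p1, per the submitters' processing notes). Reads outside genes or in several genes were 5.78% to 7.54% of uniquely aligned reads and entered no library size.

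Genes reaching 5 counts in all 10 libraries were tested with edgeR 4.0.16 (R 4.3.3; TMM, quasi-likelihood F test, Benjamini-Hochberg) on group alone, and an adjusted p under 0.05 was a call. Each SE is the absolute log2 fold change over the root of F. All symbols of the rule could be named, and values per mouse were given for the highest gene, the 3 genes called lower (and 3 higher) with the lowest adjusted p of each complex, isoform pairs, all Sdh genes, Uqcrfs1, Cyc1, Atp5a1 and Atp5b. Ndufv1 and Ldha were added after their values were seen. Other lists were named by the 2 genes called in each direction with the lowest adjusted p, Cycs and all called regulators. The members and lists were chosen with earlier results of these data known.

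As alternatives the test was changed (likelihood ratio, or DESeq2 1.42.0), then the scaling (RLE, plain library size, or the total less the 50 highest genes), the filter, the design (a replicate block), an offset for length and GC, the mice (each left out in turn) and the complex of Ndufa4. Libraries of a group differed by at least 11.8 times the chi-square expected of sampling. Which mice shared a litter is not stated, so p-values measure the spread between these mice. Positions, lengths and unique windows came from GENCODE M21 (GRCm38). The script was tested on simulated data. In the totals 1 gene is counted that is not reported by name here.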

Additional observations from a re-analysis of the deposited data

Results flagged for a closer look

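In 5 genes 1 value lay far from the other 4 mice of their group by Dixon's 95% criterion, out of 158 groups of 5 mice examined for the 79 tested genes, where chance at 1 in 20 would give 7.90. In WT replicate 1 Sdhb reached 144.6 CPM, where the other WT mice had 128 to 133 CPM, and Ndufs7 reached 87.3 CPM, where they had 69.2 to 73.1 CPM. Atp5o was at 119 CPM in KSR23 replicate 1 against 129.7 to 132 CPM in the other KSR23 mice. Cox6c was at 67.8 CPM in KSR23 replicate 3 against 58.8 to 61.2 CPM, and Ndufb6 was at 33.2 CPM in the same mouse against 38.7 to 40.2 CPM. Without the mouse concerned Sdhb, Atp5o, Cox6c and Ndufb6 were still called lower, and Ndufs7 was not.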

How the results depend on the processing

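The call of lower was kept by 20 of the 48 genes under all 21 alternatives, and no subunit gene was called higher under any. With library size alone 26 genes were called lower in all, 13 in complex I, 1 in complex II and 2 in complex IV. With WT replicates 1 and 4 left out the counts were 26 in all, 13 in complex I and 1 in complex IV. Leaving out 1 mouse at a time gave 32 to 56 in all and 2 to 10 in complex IV. Depth was no limit for most genes, but Cox4i2, Cox6b2, Ndufa4l2 and the muscle forms had few counts. Placing Ndufa4 in complex IV and leaving out the 4 non-structural symbols gave 24 genes lower in complex I, 8 in IV and 9 in V.

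Deviations of same-numbered mice correlated at -0.11 to 0.07, and 1 of the 5 WT mice correlated best with its own number. No pairing by replicate number was seen in this way, but a pairing with a small effect on expression would look the same. With the replicate block 43 genes were called lower and 0 higher, and over all genes 3749 were called in place of 4299.

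The genes that changed sign had not been called, and the cause was not tested. Most lay near 0, but Atp5s (-0.24), Uqcr10 (-0.17) and Cox6b2 (-0.17) did not. With library size alone Atp5a1 went to 0.093, Cox4i2 to 0.0071, Ndufa4l2 to 0.070, Sdha to 0.036, Sdhc to 0.011 and Uqcrq to 0.076. Without the 50 highest genes in the library size Ndufv1 went to -0.0016. With the replicate block Atp5a1 went to 0.0003. With the length and GC offset Atp5s went to 0.031, Atp5sl to -0.10, Ndufs4 to 0.027 and Ndufv1 to -0.11, and with the block added to 0.013, -0.10, 0.026 and -0.11, and Uqcrq to 0.0038. Without WT replicates 1 and 4 Atp5a1 went to 0.025, Atp5sl to -0.047, Cox6b2 to 0.011, Ndufa4l2 to 0.17, Uqcr10 to 0.012 and Uqcrq to 0.16. Leaving out 1 mouse at a time gave -0.022 to 0.020 for Atp5a1, -0.052 to 0.076 for Atp5sl, -0.27 to 0.039 for Cox4i2, -0.15 to 0.083 for Ndufa4l2, -0.028 to 0.035 for Ndufv1 and -0.10 to 0.084 for Uqcrq.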
